A study of Mus musculus with 4 samples.

Results

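A list of 20579 Pax7 peaks from iPax7 muscle progenitors held 424 peaks with a summit within 25 kb of the transcription start site (TSS) of a Primed gene. The study defined the Primed genes from its own measurements: it grouped genes that contact Pax7-bound enhancers in promoter capture Hi-C (pCHi-C) by their RNA levels in embryonic stem cells (ESCs), progenitors and differentiating cells, and Primed genes are those whose RNA was not high in progenitors relative to the other populations. The members here were thus chosen by peaks and contacts measured in the same cells, and a high share of Primed genes with a peak follows in part from that choice. Of 366 Ensembl identifiers in the group, 365 were found in the annotation of the NCBIM37 (mm9) genome, and 240 of these genes (65.8%) had at least 1 member peak. Over all 22380 protein-coding genes the share with a peak in the same window was 38.7%, and nothing is read from the gap because contacts with Pax7-bound enhancers had been a condition for entering the group. The 424 peaks formed 430 gene-peak pairs, since 6 peaks lay near more than 1 Primed gene. They were spread over 19 chromosomes.

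iPax7 cells are mouse ESCs in which doxycycline (Dox) drives a Pax7 transgene. Both Pax7 ChIP libraries and both input libraries, 4 in all, came from the same state: Dox at 1 µg/ml from day 3 of differentiation to harvest on day 9, which is 6 days of Dox, with sorting of PDGFRα+FLK1- cells on day 5 and expansion in Dox with basic FGF. Pax7 in these cells comes from a Dox-driven promoter, so the occupancy describes an induced progenitor and not a satellite cell taken from muscle, and cells before induction or after Dox withdrawal were not analysed here. The replicates were merged before 1 peak list was made, so each peak has 1 fold enrichment (ChIP over the local background at the summit), without a replicate error, and the read depth behind a peak is unknown from the list. Intervals given below are 95% Wilson intervals on counts of peaks and cover counting error only. No RNA level and no chromatin contact was analysed here, so a peak is placed by its distance to a gene.

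Pax7 is the paired-box and homeobox transcription factor that marks satellite cells, the stem cells of skeletal muscle, and maintains the progenitor state before the myogenic regulatory factors take the cells towards fusion. It reads DNA with 2 domains. The paired domain recognises sequences built around GTCACG, here called the paired-box core, and the homeodomain recognises TAAT and ATTA. Genes bound in progenitors but transcribed only later, such as genes of the contractile apparatus, are spoken of as primed.

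The sequences of some of the named peaks show which of these sites lay under their summits. These are examples and not the strongest peaks of each kind. Each line below gives a summit with 50 bases to either side of it, read 5′ to 3′ on the plus strand of NCBIM37. The first set holds peaks with the paired-box core, whose letters (GTCACG, or CGTGAC where the core is on the minus strand) are in capitals. They are shown because their core lay within 20 bp of the summit, and because at Spsb1 the core occurred again 30 bp away.
Spsb1, chr4:149329226-149329326, plus strand: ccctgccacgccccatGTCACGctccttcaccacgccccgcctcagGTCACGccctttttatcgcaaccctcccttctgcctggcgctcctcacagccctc
Lsm11, chr11:45758548-45758648, plus strand: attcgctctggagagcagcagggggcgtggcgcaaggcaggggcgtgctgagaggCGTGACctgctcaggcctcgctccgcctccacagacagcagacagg
Myo10, chr15:25552064-25552164, plus strand: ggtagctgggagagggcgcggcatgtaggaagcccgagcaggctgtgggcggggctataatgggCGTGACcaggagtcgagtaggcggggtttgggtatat
Phlpp1, chr1:108045752-108045852, plus strand: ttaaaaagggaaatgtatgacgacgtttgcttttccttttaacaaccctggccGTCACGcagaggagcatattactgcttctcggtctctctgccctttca
Jun, chr4:94719927-94720027, plus strand: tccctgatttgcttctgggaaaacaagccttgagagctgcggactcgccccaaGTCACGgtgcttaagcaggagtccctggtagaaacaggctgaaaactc
Klf6, chr13:5860511-5860611, plus strand: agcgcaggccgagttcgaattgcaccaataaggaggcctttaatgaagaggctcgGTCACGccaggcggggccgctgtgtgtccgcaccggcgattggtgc
Atf4, chr15:80085296-80085396, plus strand: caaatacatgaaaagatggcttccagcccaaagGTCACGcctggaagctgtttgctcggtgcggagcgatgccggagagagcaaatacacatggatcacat

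The second set holds sites of the other kinds. Capitals mark ATTAGTCA (or TGACTAAT on the minus strand), a composite in which a homeodomain site abuts the start of the paired-box site, and, at Sik1, TAAT and ATTA spaced by 2 bases. At Ikzf2 the composite ran on into a full core. Ikzf2 and Sik1 were picked for their sequence after the values were seen. Some peaks with the composite were stronger than those of Ikzf2 and Mapk6 and are not printed, such as Fam72a (11.3-fold) and Med13l (9.70-fold).
Tnrc18, chr5:143585025-143585125, plus strand: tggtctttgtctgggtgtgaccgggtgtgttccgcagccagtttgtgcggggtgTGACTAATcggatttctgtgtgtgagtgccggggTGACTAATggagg
Ikzf2, chr1:69721903-69722003, plus strand: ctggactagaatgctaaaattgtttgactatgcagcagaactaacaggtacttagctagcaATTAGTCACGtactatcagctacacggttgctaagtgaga
Mapk6, chr9:75264222-75264322, plus strand: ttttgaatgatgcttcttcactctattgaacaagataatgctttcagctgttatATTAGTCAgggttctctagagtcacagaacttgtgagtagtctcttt
Sik1, chr17:32000294-32000394, plus strand: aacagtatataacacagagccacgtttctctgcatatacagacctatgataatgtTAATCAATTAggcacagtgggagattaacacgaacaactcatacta

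The third set holds strong peaks without any of these sites. Positions are counted from 1 at the 5′ end of the core. Capitals there mark GTCATG, which differs from the core by C5T and reads CATGAC when it is on the minus strand. At Frem2 they mark GTCACA, which differs by G6A and reads TGTGAC there. The peaks shown are a choice, and each holds such a form. Other strong peaks without a site, such as Ahnak (13.1-fold), Lrp6 (12.5-fold) and Jarid2 (11.6-fold), held neither GTCATG nor GTCACA. At Slc6a6 and Myom1 the marked form lay nearer to the end of the window than to the summit.
Slc6a6, chr6:91612498-91612598, plus strand: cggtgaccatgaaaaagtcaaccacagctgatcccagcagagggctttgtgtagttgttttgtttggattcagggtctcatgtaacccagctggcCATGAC
Frem2, chr3:53451003-53451103, plus strand: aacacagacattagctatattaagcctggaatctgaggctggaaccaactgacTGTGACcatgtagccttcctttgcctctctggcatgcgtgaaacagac
Myom1, chr17:71388330-71388430, plus strand: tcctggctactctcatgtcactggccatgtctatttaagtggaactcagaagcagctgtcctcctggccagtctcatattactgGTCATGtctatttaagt

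Pax7 peaks near Primed genes were spread over both sides of the TSS. In 228 of 430 pairs (53.0%, interval 48.3 to 57.7%) the summit lay upstream, compared with 52.1% of 13321 pairs over all protein-coding genes. The median distance from summit to TSS was 9.09 kb, beside 9.56 kb for all protein-coding genes. The 5 kb just upstream of the TSS held 92 pairs (21.4%) and the 5 kb just downstream held 59 (13.72%). Over all protein-coding genes these bins held 20.18% and 15.25% of pairs. Each further 5 kb bin held 25 to 40 pairs (5.81 to 9.30%), beside 7.61 to 8.63% over all protein-coding genes. By position, 142 peaks were at most 1 kb from a TSS of any annotated transcript (33.5%, interval 29.2 to 38.1%), while 151 (35.6%) were in introns, 115 (27.1%) between genes and 16 (3.77%) in exons. Among peaks within 25 kb of any protein-coding TSS the TSS share was 36.5%, and among all peaks, which include those far from genes, it was 16.3%. Of the 142 TSS peaks, 78 were at the TSS of the Primed gene itself and 64 at the TSS of another gene or at another annotated start. Of 151 intronic peaks, 112 lay inside the Primed gene they were assigned to. For 326 peaks (76.9%, interval 72.6 to 80.6%) a Primed gene was the nearest protein-coding gene, and the other peaks lay closer to a gene outside the group.

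**Figure D1:**
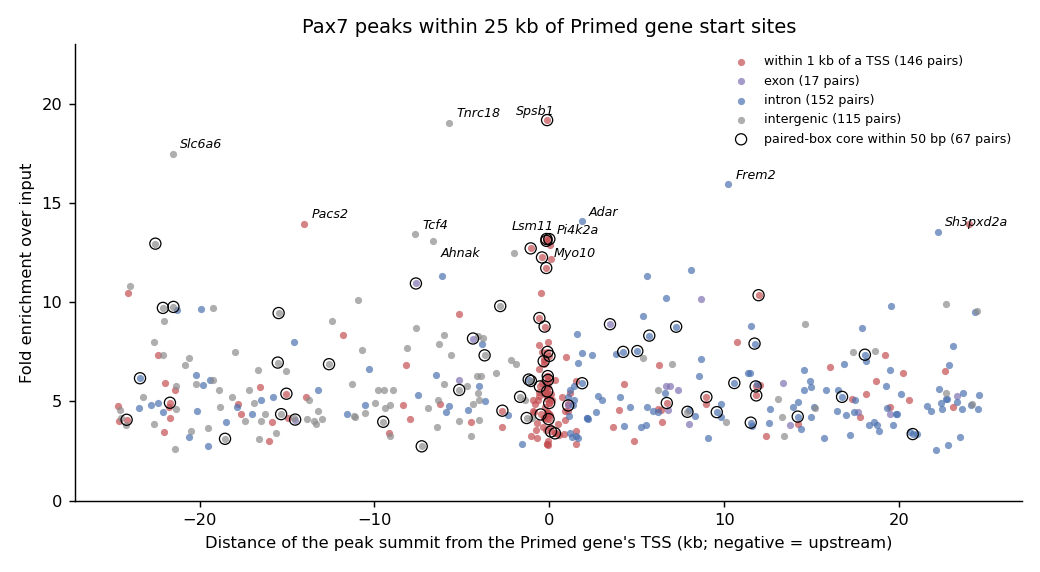
Each point is 1 gene-peak pair, placed by the distance of the summit from the Primed gene's TSS (x axis, kb, negative upstream) and by fold enrichment over input (y axis); colours give the position class and black circles mark a paired-box core within 50 bp of the summit. Points crowd within 1 kb of the TSS, and the highest values, 19.2-fold at Spsb1 and 19.0-fold at Tnrc18, lie at and 5.73 kb upstream of the TSS.

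Fold enrichment of the 424 peaks ran from 2.56 to 19.2, and its median was 5.11 (quartiles 4.25 and 6.74). The median over all 20579 peaks was 5.22. Near Active I, Active II and Active III genes, which make up the other groups and are expressed more highly in progenitors, the median was 5.13, 4.92 and 5.08. In 29 peaks (6.84%) it reached 10-fold or more, beside 6.99% of all Pax7 peaks, so strong peaks were about as frequent near Primed genes as in the whole list. In 24 of the 29 the nearest protein-coding gene was a Primed gene. By position, 13 of the 29 were within 1 kb of a TSS, 8 between genes, 6 in introns and 2 in exons.

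The strongest member peak, 19.2-fold with a −log10 q of 95.8, lay 124 bp upstream of Spsb1, which encodes a substrate adaptor of a ubiquitin ligase. It ranked 55 among all Pax7 peaks. Next came a 19.0-fold peak of 716 bp between genes, 5.73 kb upstream of Tnrc18, whose product carries a chromatin-binding BAH domain; its summit window, printed above, held the composite site 2 times and no core. The third peak was 17.5-fold and lay 21.5 kb upstream of Slc6a6, the taurine transporter. An intron of Frem2, a basement membrane protein, held a 15.9-fold peak 10.2 kb downstream of the TSS. Adar, the enzyme that edits adenosine in double-stranded RNA, had a 14.1-fold peak in an intron 1.85 kb downstream of its TSS. A 13.9-fold peak lay at the TSS of Brf1, a subunit of an RNA polymerase III initiation factor, and counts as a member only because it is 14.0 kb upstream of Pacs2 and 24.0 kb downstream of the Btbd6 TSS. Sh3pxd2a, which encodes a scaffold of podosomes, had a 13.5-fold intronic peak 22.2 kb downstream. Upstream of Tcf4, an E protein that dimerises with MyoD family factors, a 13.4-fold peak stood 7.68 kb from the TSS. Lsm11, a component of the U7 particle that processes histone mRNA, and Pi4k2a, a phosphatidylinositol 4-kinase, completed the 10 strongest, each with 13.2-fold enrichment, at 161 bp upstream and 2 bp downstream of the TSS. Of these 10 peaks, Spsb1, Lsm11 and Pi4k2a had the paired-box core.

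At their own TSS, 72 Primed genes had 78 member peaks within 1 kb, of which 58 lay upstream and 20 downstream. The same split was not counted for all protein-coding genes. Median fold enrichment of the 78 peaks was 5.18. The 5 strongest were at Spsb1, Lsm11, Pi4k2a, Myo10 and Adat1. Myo10, the myosin of filopodia, had a 13.1-fold peak 166 bp upstream of its TSS, and a second peak of 6.96-fold with a core 15.5 kb upstream. Adat1, which deaminates adenosine in tRNA, had a 12.9-fold peak 39 bp downstream of the TSS and no core. Of the 29 peaks of at least 10-fold, 9 were at the gene's own TSS, and 6 of these 9 had the core, compared with 4 of the other 20. These are few peaks, no interval was calculated, and the same split of all strong Pax7 peaks was not made. Over all Pax7 peaks, whatever their strength, the core was in 18.6% at a TSS and 9.69% farther away. Besides the 5 named, the own-TSS peaks of at least 10-fold were at Hist2h4 (12.3-fold), Lyrm7 (12.2-fold), Klf6 (11.7-fold) and Zfp189 (10.5-fold). Hist2h4 and Klf6 had the core, and Lyrm7 and Zfp189 did not.

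Most Primed genes had few peaks. In the 25 kb window 125 genes had none, 119 had 1, 72 had 2, 33 had 3, and 16 had 4 or more, which is 4.38% of 365 genes beside 1.38% of all protein-coding genes. Contacts with Pax7-bound enhancers had been a condition for entering the group, so nothing is read from that gap either. Mapk6, which encodes the atypical MAP kinase ERK3, had the most, with 6 peaks of 4.16-fold to 6.56-fold. They stood 15.1, 14.6, 6.46 and 5.76 kb upstream, 121 bp upstream and 12.1 kb downstream of its TSS, and only the peak at 121 bp had the core. Zfp568, a KRAB zinc-finger repressor, had 5 peaks of 4.79-fold to 7.25-fold, with 3 of them within 1 kb of the TSS. Trak1, which couples mitochondria to motor proteins, had 5 peaks of 3.84-fold to 5.62-fold, of which 4 were in its introns between 16.7 and 22.3 kb downstream. The other 13 genes of this kind had 4 peaks each, and they are tied in the order. At Tnrc18, Lyrm7 and Igfbp3 a single peak above 10-fold stood among weaker ones, whereas at Casq1 and Mcl1 the highest values were 9.59-fold and 8.89-fold. Of the 10 strongest member peaks, only that of Tnrc18 belonged to a gene with 4 or more peaks. Some of these peaks were neighbours that a looser rule would join. In all, 16 pairs of adjacent member peaks were within 500 bp of each other, with 2 pairs at Mapk6, and merging neighbours left 408 peaks near the same number of genes, 240.

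**Figure D2:**
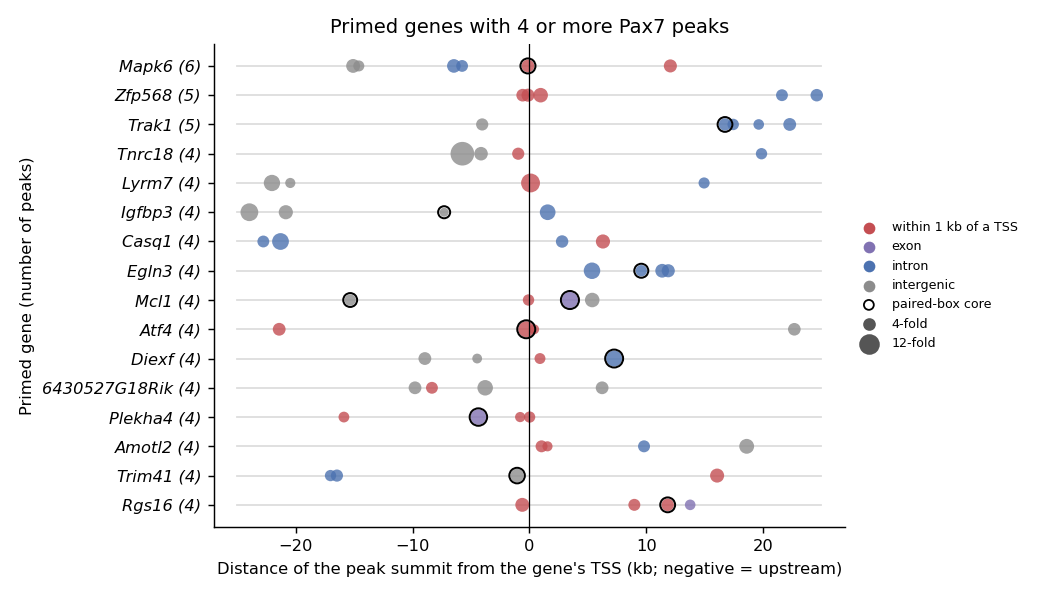
The 16 Primed genes with 4 or more Pax7 peaks, with each peak placed by its distance from the gene's TSS (x axis, kb, negative upstream); point area scales with fold enrichment, colours give the position class and black circles mark a paired-box core within 50 bp of the summit. Peaks of Trak1 and Egln3 gather downstream in introns, those of Mapk6 mostly upstream, and the largest point is the 19.0-fold peak of Tnrc18.

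The genes were next followed by role, in 9 lists of Primed genes put together from textbook function, which overlap and cover 156 genes. The lists are not complete for a role, and some of the genes named above, such as Spsb1, are in none of them. Of these, 99 had a member peak, and they had 176 peaks in all. Each list's median fold enrichment is set beside 5.22 for all Pax7 peaks, as a description.

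Genes of muscle structure and contraction, the kind of gene the term Primed brings to mind, had 19 peaks at 9 of 15 genes. Their median was 5.41-fold and no peak reached 10-fold. Casq1, the calcium store protein of the sarcoplasmic reticulum, had 4 peaks. The strongest, at 9.59-fold, lay 21.3 kb upstream of its TSS in an intron of Atp1a4, a neighbouring ion pump gene. The others of Casq1 were 6.82-fold at 6.30 kb downstream, 5.28-fold at 2.80 kb downstream and 4.80-fold at 22.8 kb upstream. Myom1, which builds the M band of the sarcomere, had the strongest peak of the list, at 9.80-fold in an intron 19.5 kb downstream, and peaks of 6.36-fold and 4.45-fold upstream. A single peak stood at Utrn, the dystrophin relative utrophin, 15.5 kb upstream, with 9.45-fold enrichment and a core. Dst, which encodes the cytoskeletal linker dystonin, had 3 peaks of 3.26-fold to 5.79-fold. Mypn, Atp2a2, Dag1 and Myl6b had 1 or 2 peaks each, from 3.02-fold to 5.76-fold. No summit fell within 25 kb of Ldb3, Myh13, Fhod3, Fxyd1, Sntb1 or Apobec2.

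Transcription factors and cofactors had 45 peaks at 24 of 30 genes, with a median of 5.12-fold. The core was found in 12 of these peaks (26.7%), beside 15.6% of all 424 members and 11.1% of all Pax7 peaks. This was the highest core share of the 9 lists, from few peaks, and no interval was calculated for it. Of the 45 peaks, 13 were within 1 kb of a TSS, where the core was more frequent among members. Atf4, a factor of the stress response, had 4 peaks, and its strongest, at 8.77-fold, held the core 14.5 bp from a summit 268 bp upstream of the TSS. Besides the peak named above, Tcf4 had a 7.30-fold peak with a core 8 bp downstream of its TSS and a 3.76-fold peak in an intron. Jun, a subunit of AP-1, had 1 peak, 12.7-fold, with a core 1.06 kb upstream. Klf6, a zinc-finger factor, had an 11.7-fold peak with a core 174 bp upstream, and peaks of 4.38-fold and 3.95-fold farther away. Bhlhe40, a repressor of the bHLH family, had peaks of 6.10-fold and 4.48-fold, each with a core. Mef2a, a MADS-box factor of muscle genes, had a 4.35-fold peak, which held the core 2 times, and a 3.57-fold peak without it. Six4, Tead4, Smad1, Foxo4 and Mkl1 were among the genes with no summit in the window.

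In the list of TGF-beta, BMP, Wnt and Hippo signalling, 15 peaks stood at 6 of 12 genes, and their median of 6.96-fold was the highest of the 9 lists. Lrp6, a Wnt coreceptor, had 1 peak of 12.5-fold 2.02 kb upstream. Amotl2, which binds Yap in the Hippo pathway, had 4 peaks of 3.49-fold to 7.52-fold. Smad3, the effector of TGF-beta signals, had peaks of 7.98-fold 22.6 kb upstream and of 7.91-fold with a core 11.7 kb downstream, besides a 4.56-fold peak. Tle3, a corepressor of Wnt target genes, had 3 peaks of 4.72-fold to 7.50-fold, and 2 of them had the core. Wwtr1, the Hippo coactivator TAZ, had 6.96-fold and 5.12-fold peaks and Tead1, its DNA-binding partner, had 7.04-fold and 5.25-fold peaks. Tgfb2 and Acvr2a, a ligand and a receptor, were without a peak, as were Bcl9l and Prickle3. Smad3, Tle3, Tead1 and Wwtr1 are also in the list of transcription factors.

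Growth factor, insulin and MAP kinase signalling had 25 peaks at 14 of 24 genes, with a median of 5.51-fold. Phlpp1, the phosphatase that turns off Akt, had the strongest, a 12.9-fold peak with a core 22.5 kb upstream. Igfbp3, which binds insulin-like growth factors, had 4 peaks. Its strongest was 10.8-fold and 24.0 kb upstream, its second 8.40-fold in an intron 1.56 kb downstream, and its weakest, 2.74-fold, was the only 1 of the 4 with a core. Spry1, a feedback inhibitor of growth factor signals that satellite cells use, had a 7.50-fold peak 17.4 kb downstream. Igf2, Ulk1, Ksr1, Dusp8, Dusp16, Artn, Ptk2, Socs3 and Foxo4 were among the genes with none.

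Genes of the actin cytoskeleton and cell migration had 20 peaks at 15 of 25 genes, with a median of 6.24-fold, and 5 peaks (25.0%) had the core. Within the list, which does not hold Sh3pxd2a, Myo10 and Srgap2 had the strongest peaks. Srgap2, a GTPase-activating protein of the Slit-Robo pathway, had an 11.3-fold peak in an intron 5.60 kb downstream, and the same peak lay 6.14 kb upstream of Fam72a. The peak of Bcr, at 10.4-fold and 24.1 kb upstream, was within 1 kb of an annotated TSS and nearest to Rab36. Itsn1, an endocytic scaffold, had 3 peaks of 3.20-fold to 7.85-fold.

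Adhesion and extracellular matrix genes had 15 peaks at 7 of 12 genes, with a median of 4.80-fold. None of the 15 had the core, beside 15.6% of all 424 members and 7.69 to 26.7% in the other lists. These are few peaks, and no interval was calculated. Frem2 held the strongest peak of the list. Itgb6, an integrin subunit, had 3 intronic peaks of 9.50-fold, 7.14-fold and 5.76-fold, and Hyal1, a hyaluronidase, had 3 of 3.84-fold to 8.02-fold, all nearest to other genes. Col1a1, a main chain of type I collagen, had none.

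Chromatin regulators had 23 peaks at 14 of 21 genes, with a median of 4.97-fold. Tnrc18 is not in this list. The strongest within it, 11.6-fold, was in an intron of Jarid2, a partner of Polycomb complex PRC2, 8.13 kb downstream. Med13l and Zmynd8 had 3 peaks each. For Med13l, of the Mediator kinase module, they were 9.70-fold with the composite site 19.2 kb upstream, and 4.25-fold and 3.16-fold close to the TSS. For Zmynd8, a reader of acetylated histones, they were 6.54-fold, 5.23-fold with a core, and 3.84-fold. Dnmt3a, a DNA methyltransferase, had no peak in the window. The list of RNA binding and decay genes, which does not hold Lsm11 or Adat1, had 13 peaks at 9 of 15 genes, with a median of 4.65-fold. None of the 13 was within 1 kb of a TSS, and only the 14.1-fold peak at Adar was above 10-fold. The list of ubiquitin system genes, which leaves out Spsb1, had 13 peaks at 6 of 12 genes, with a median of 4.94-fold and a highest value of 7.91-fold at March7. Trim41, a ubiquitin ligase, had 4 of the 13, from 4.36-fold to 6.72-fold.

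**Figure D3:**
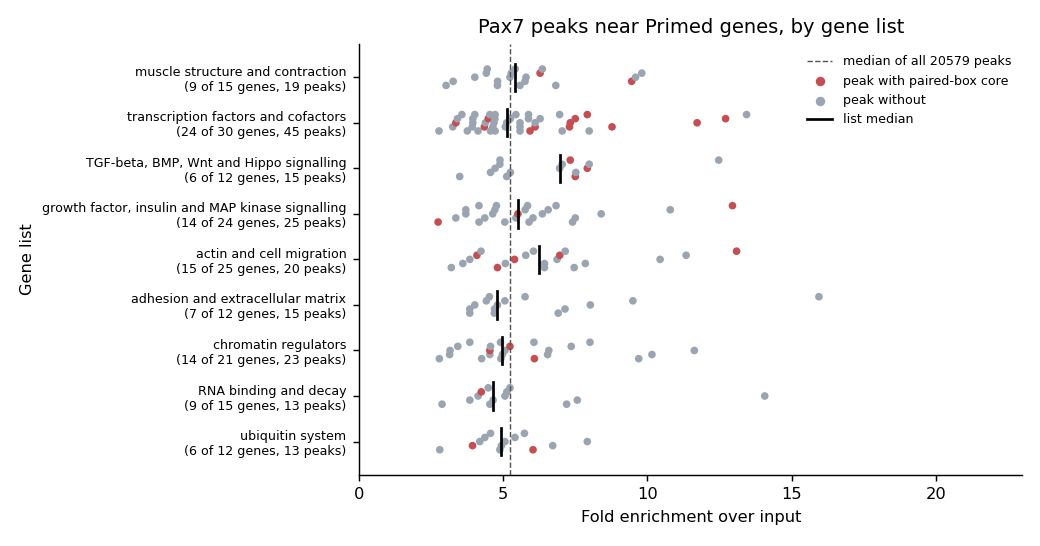
Fold enrichment over input (x axis) of the Pax7 peaks near the Primed genes of each list (y axis); each point is 1 peak, red points have the paired-box core within 50 bp of the summit, black bars are list medians and the dashed line is the median of all 20579 peaks. List medians run from 4.65 for RNA binding and decay to 6.96 for TGF-beta, BMP, Wnt and Hippo signalling. None of the 15 peaks in the adhesion list has the core, which is few peaks.

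The paired-box core, on either strand and at most 50 bp from the summit, was present in 66 of 424 member peaks (15.6%, interval 12.4 to 19.3%), beside 11.1% of all Pax7 peaks and 14.5% of the peaks within 25 kb of any protein-coding TSS. Windows of the same length centred 500 bp to the left and right held it in 6 and 8 member peaks (1.42% and 1.89%). The control GCACTG, the core written backwards, was in 5.43% of summit windows and in 7.55% of each flank, and GTACCG, which also holds a CpG, was in 0.943% of summit windows. In 43 of the 66 peaks the core lay within 20 bp of the summit, and the median offset was 13 bp. Only 2 members had it more than once. None of the member cores overlapped TGACGTCA, the cAMP response element, which shares the letters GTCA with it. Such an overlap was rare in the whole list too, in 9 of 2292 peaks with a core (0.393%).

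**Figure D4:**
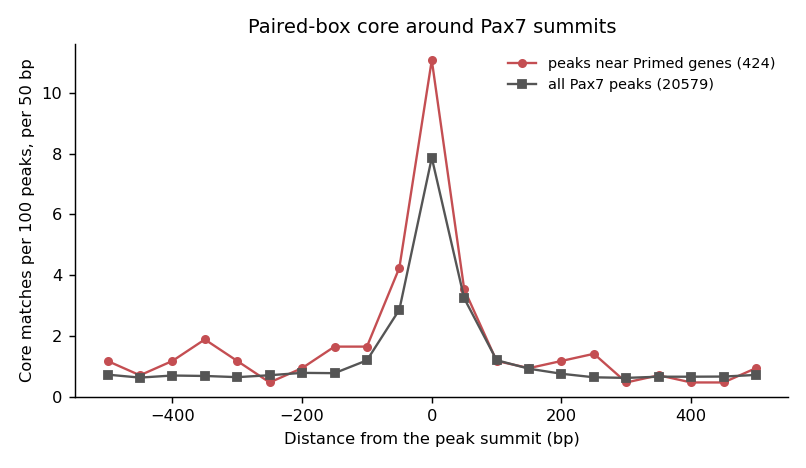
Matches to the paired-box core (GTCACG, both strands) per 100 peaks in bins of 50 bp (y axis) by distance from the summit (x axis, bp), for the 424 peaks near Primed genes and for all 20579 Pax7 peaks. Both lines peak in the bin at the summit and stay below 2 matches per 100 peaks beyond 200 bp.

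The share of member peaks with the core was higher among stronger peaks. It was 7 of 76 (9.21%) below 4-fold, 24 of 211 (11.4%) from 4 to 6-fold, 25 of 108 (23.1%, interval 16.2 to 31.9%) from 6 to 10-fold and 10 of 29 (34.5%, interval 19.9 to 52.7%) at 10-fold or more. All Pax7 peaks followed the same order with 8.62, 10.0, 12.5 and 19.5%. The members' interval included the value of all peaks in the lower classes and lay above it in the 6 to 10-fold class and, narrowly, in the class of 10-fold or more. From 6 to 10-fold the core was in 15.7% of the peaks near Active I, 17.5% near Active II and 13.3% near Active III genes. At 10-fold or more it was in 23.1, 23.5 and 36.0%, and these last classes hold few peaks (25 to 39). Of the members at 10-fold or more 44.8% were within 1 kb of a TSS, beside 13% of all peaks of that strength. From 6 to 10-fold the TSS shares were 26.9% and 14.1%. The part of position in the core shares was not tested. The 66 members with a core had a median of 6.09-fold and the 358 without it 5.05-fold, compared with 5.58-fold and 5.13-fold over all peaks. Position moved with it as well. Within 1 kb of a TSS 29 of 142 members (20.4%) had the core, beside 18.6% of all peaks at a TSS, and farther away 37 of 282 (13.1%) had it, beside 9.69% of all peaks there. Median GC content of the windows was 56.4% in TSS members, 49.5% in all members and 45.5% in all peaks, and the part of base composition in these shares was not tested.

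**Figure D5:**
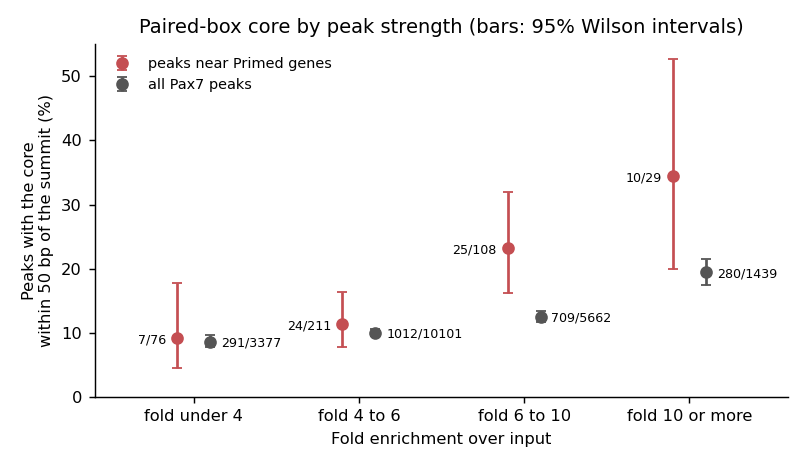
Percentage of peaks with the paired-box core within 50 bp of the summit (y axis) in 4 classes of fold enrichment over input (x axis), for peaks near Primed genes and for all Pax7 peaks; bars are 95% Wilson intervals and labels give peaks with the core over all peaks in the class. The member values rise from 9.21% to 34.5% and those of all peaks from 8.62% to 19.5%.

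Most members lacked each of the Pax sites, as did most peaks of the whole list. With ATTAGTCA, present in 16 members (3.77%; all peaks 2.94%), and the homeodomain pairs TAAT and ATTA spaced by 2 or 3 bases, present in 6 (1.42%; all peaks 1.82%), 87 of 424 members had at least 1 of the sites and 337 had none. A core or a homeodomain pair, without counting ATTAGTCA, was in 17.0% of members and 12.9% of all peaks. The share of all peaks with any of the sites, ATTAGTCA included, was not calculated. ATTAGTCA was in 0 and 1 member peaks in the left and right flanks. No member had both a core and a homeodomain pair, and over all Pax7 peaks only 15 of 2292 peaks with a core (0.654%) had both. Of 18 forms that differ from the core by 1 base, looked at after these counts were known, 10 were in a higher share of member summits than of either flank, and the other 8 were not. The most frequent are given here. GTCACA was in 57 members (13.4%) and in 5.43% and 5.90% of the flanks, and GTCATG in 50 (11.8%) and in 4.48% and 2.59% of the flanks. The same forms were in 13.8% and 13.7% of all Pax7 summits. Beside the core itself, the base after GTCACG was C in 42.6% and G in 45.6% of 68 cores, and A in 1.47%. In 2406 cores of all Pax7 peaks it was C in 39.7%, G in 48.8% and A in 4.57%.

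Sites of other factors of muscle cells were searched in the same windows. CAGCTG, the E-box bound by MyoD family factors, was in 60 members (14.2%; all peaks 15.7%) and in 5.66% and 4.01% of the flanks. It was in 55 of 282 members (19.5%) away from a TSS and in 5 of 142 (3.52%) near a TSS, the opposite order to the paired-box core. The flanks held it in 5.67% and 3.90% away from a TSS and in 5.63% and 4.23% near a TSS. This split was not made for all Pax7 peaks, so it is not known to be particular to the members. CAGGTG, another E-box, was in 4.48% of summit windows (all peaks 4.35%) and in 6.37% and 4.95% of the flanks. The Tead site GGAATG was in 44 members (10.4%; all peaks 11.0%; flanks 4.48% and 6.13%), and the Runx site TGTGGT also in 44 (10.4%; all peaks 9.73%; 6.37% in each flank). TGANTCA, the site of AP-1, was in 25 (5.90%; all peaks 6.82%; flanks 1.89% and 3.30%). The MEF3 site TCAGGTT was in 5 (1.18%; all peaks 1.33%; flanks 2.36% and 1.42%). All of these are letters in the genome, and binding of those factors was not measured here.

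Some member peaks also lay within 25 kb of an Active gene. There were 26 near Active I, 36 near Active II and 17 near Active III genes, and 68 (counted once each) near any of them. The Active groups, which have 401, 482 and 443 genes, had 516, 509 and 469 peaks of their own. The core was in 13.2, 13.6 and 13.4% of those peaks, inside the interval of the Primed value. At the edge of the window, the last peak inside was 24654 bp upstream of Ranbp10 (4.76-fold), and the first outside was 25066 bp upstream of Lrrc8d (5.53-fold).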

How the data were processed

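Pax7 ChIP-seq reads from 2 ChIP and 2 input libraries were aligned by the authors to mm9 with bowtie2, restricted to uniquely mapped reads, cleared of duplicates with Picard and merged, and peaks were called with MACS2, keeping q-values below 0.01. The deposited list gives, per peak, the fold enrichment (a ratio to local background), −log10 of the p-value and q-value, a score and the summit. The study reports mapped reads for each library, but the list holds no read count per peak. No depth or interval per peak could therefore be given.

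Primed genes were placed by GENCODE vM1 on NCBIM37, with the gene's 5′ end as TSS. Members are summits within 25 kb. Position classes used all annotated transcript starts, then exons and introns. Either strand was searched for motifs, up to 50 bp from the summit and in windows of the same length centred 500 bp to either side. Named genes are the 10 strongest peaks, the 5 genes with most peaks (ties stated), the 5 strongest own-TSS peaks, in each list the genes with most peaks and the strongest peak, and the peaks at the window's edge; further genes named in the lists were added after their values were seen. Members, lists and motifs were chosen with earlier results of these data known. No test was run, because 1 merged list has no replicates and peaks are not replicates. The counting of pairs and motifs was tested on simulated data. Sequences were read with samtools 1.23.1 and pysam 0.24.0, and counts and plots were made in Python 3.11.15 with pandas 2.3.3, numpy 2.4.6, scipy 1.17.1 and matplotlib 3.10.9. Some genes of the lists are counted but not reported by name here.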

Additional observations from a re-analysis of the deposited data

How the results depend on the processing

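The values below were recomputed under other settings. A window of 10 kb gave 221 member peaks, a TSS share of 47.1%, a core share of 19.5% and a Primed gene as nearest coding gene in 86.4%. A window of 50 kb gave 770 peaks, 27.1% at a TSS and 64.0% nearest to a Primed gene, and 100 kb gave 1329 peaks. Any annotated transcript start in place of the gene's 5′ end gave 644 peaks, and a fold enrichment of at least 5 gave 226 peaks with a core share of 20.4%. Protein-coding TSSs alone gave a TSS share of 27.1%. Searching 25 or 100 bp around the summit gave a core share of 11.1% or 19.3%. Leaving out peaks also near an Active gene, an alternative added after seeing the data, gave 82.9% nearest to a Primed gene. The other 30 of 45 recomputed values moved by less than the main interval (counts, by less than 1.5 times). They include the median fold enrichment and the upstream share under every setting tried. The number of genes with a peak is also among them, under a rule that is wide for a count of at most 365. That number followed the window, with 164 genes at 10 kb, 301 at 50 kb and 339 at 100 kb, beside 240 at 25 kb. Replicates could not be left out of a merged list. No paired analysis was possible because both replicates were merged into 1 list before deposit. The list holds no depth, so a gene without a peak may have a site under the caller's threshold.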

Other observations

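At the TSS of Primed genes the strand of the paired-box core was set beside the strand from which the gene is transcribed. Among the 20 own-TSS pairs with a core within 50 bp of the summit, it was on the gene's strand in 15 and on the other in 5 (75.0%, interval 53.1 to 88.8%). Over all protein-coding genes the same count was 290 of 550 (52.7%, interval 48.5 to 56.9%). The strand was looked at after the positions were known, the intervals overlap, and the difference was not tested.

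Of the 61 Primed genes with a core under a member peak, Mcl1, an inhibitor of cell death, had 2 such peaks, as did Pacs2, Tle3, Myo10, Fcho2 and Bhlhe40. Those of Mcl1 were 8.89-fold in an exon 3.47 kb downstream of the TSS and 4.36-fold 15.3 kb upstream. Its peak 73 bp upstream of the TSS was 4.44-fold and had no core. Plekha4 also had its strongest peak, 8.17-fold with a core 2.5 bp from the summit, away from its TSS, 4.36 kb upstream in an exon of a neighbouring gene.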
